A study of Mus musculus with 8 samples.

Results

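Genes of the Kmt2a histone methyltransferase complex were described in the cortex of Ptbp2 knockout and wild type mouse embryos: Kmt2a, Men1, Psip1, Wdr5, Rbbp5 and Ash2l. The 6 genes were taken by name, of the 21451 genes that the array annotation named by exactly 1 symbol, and Kmt2a was found under its older symbol Mll1. The genes had been picked with results of this contrast in view, so their differences between knockout and wild type are a description. Where the fits over all genes or probe sets called members, the count stands beside the share called among all features, and nothing is read from it. Total RNA came from 4 Ptbp2 knockout and 4 wild type embryos at embryonic day 18.5, each on 1 Affymetrix exon array. Both groups were cortex of a mixed CD1 and C57BL/6 background, and the series states that the samples are biological replicates. Which Ptbp2 allele was used, and whether it was absent from all cells, is not given in the sources used here. Ptbp2 is a neuronal RNA-binding protein that controls alternative splicing, and an exon array measures several short stretches of each gene (probe sets), so that both the level of a gene and an uneven change along it can be read.

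Kmt2a (also MLL1) adds methyl groups to lysine 4 of histone H3, a mark of active promoters, and is known for keeping Hox genes on and for its part in neural stem cells and in leukaemias with a broken KMT2A gene. Its catalytic domain works poorly alone and is switched on by a core shared with the other KMT2 enzymes, made of Wdr5, Rbbp5, Ash2l and Dpy30. Menin, the product of Men1, and the chromatin reader Psip1 (LEDGF) bind the N-terminal part of Kmt2a and tie it to its target genes.

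The annotation placed 158 probe sets in the 6 genes: 53 in Kmt2a, 14 in Men1, 27 in Psip1, 20 in Wdr5, 23 in Rbbp5 and 21 in Ash2l. Of these, 153 had a mean signal at or above the median of all probe sets (log2 6.84) and were retained: 52, 14, 27, 20, 20 and 20 in the same order. The gene value on an array was the median log2 signal of its retained probe sets. The genes lie on chromosome 9 (Kmt2a, gene ID 214162), 19 (Men1, 17283), 4 (Psip1, 101739), 2 (Wdr5, 140858), 1 (Rbbp5, 213464) and 8 (Ash2l, 23808). Positions of single probe sets were not used here, so a probe set is named by its number and is not placed in an exon.

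Ptbp2 itself stood at 6.24, 5.80, 5.54 and 6.22 (log2) in the 4 knockout cortices, against 11.40, 11.15, 11.08 and 11.16 in wild type (difference -5.25, SE 0.14, limma adjusted p = 1.7e-12), and the knockout mean lay below the signal filter. Array medians ran between 6.82 and 6.93. On the first 2 principal components (28.9% and 22.6% of the variance), wild type 3 (21.5 on the first), knockout 3 (19.4 on the second) and wild type 1 (-13.7 and -11.9) stood apart from the others, and values of named genes and probe sets that moved by over 1.5 times or changed sign without 1 of them are also given without it or as a range. Markers of cortical glutamatergic neurons were well above the filter in every array (list means 10.10 to 10.30 in knockout and 10.21 to 10.38 in wild type; 6 of 8 markers found). Of 11 marker lists, that of striatal neurons separated the groups, at 8.48 to 8.94 in knockout and 9.02 to 9.38 in wild type (6 of 7 markers found, none below the filter). Microglial markers ran from 7.37 to 7.66 in knockout and 7.10 to 7.40 in wild type, with P2ry12 and Aif1 below the filter, and the choroid plexus marker Ttr stood at 9.36 in knockout 2 against 13.18 to 13.38 in the other 7 arrays. Whether tissue makeup has a part in the values below was not tested, and in bulk cortex fewer cells of a type and less RNA per cell cannot be told apart.

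Kmt2a had the largest difference of the 6 genes and was higher in knockout. Its level was 10.50, 10.28, 10.54 and 10.50 in the knockout cortices and 10.10, 9.99, 10.26 and 10.02 in wild type. Every knockout array stood above every wild type array, by a narrow margin between knockout 2 and wild type 3. The means were 10.45 ± 0.12 in knockout and 10.09 ± 0.12 in wild type (SD, n = 4 each), a difference of 0.36 (SE 0.085) or 1.28-fold. Leaving out 1 array at a time kept it between 0.33 and 0.42, and without both arrays numbered 3 it was 0.39. In absolute size it lay at percentile 98.7 of the 12960 genes tested. Kmt2a was chosen on this contrast, so nothing is read from that rank.

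Of the 6 complex genes, 0 passed an adjusted p of 0.05 in limma, where 0.116% of all genes did (15 genes) and 0.054% did so as higher, and 1 of the 6 had an unadjusted p under 0.05, where 6.49% did. Kmt2a was also the 1 complex gene whose groups did not overlap, where 1.68% of all genes lay above wild type without overlap and 1.97% below. The genes were chosen on this contrast, so nothing is read from these counts.

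**Figure D1:**
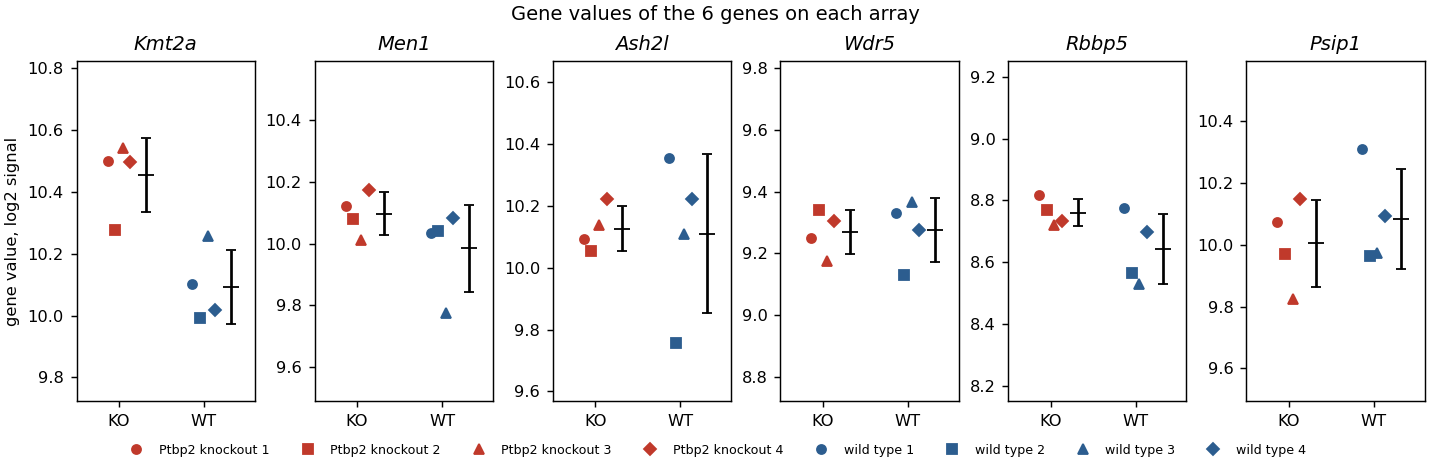
Gene value (log2 signal, median of retained probe sets) of the 6 genes on each array, with Ptbp2 knockout (KO) left of wild type (WT); point shapes give the replicate, bars are the group mean and SD (n = 4 each), and each panel has its own range. The Kmt2a groups do not overlap, with 10.28 to 10.54 in knockout and 9.99 to 10.26 in wild type.

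The difference was spread unevenly over the Kmt2a probe sets. Of the 52 retained, 49 were higher and 3 lower in knockout, with a median difference of 0.33 and a range of -0.15 to 0.85 (log2). At the upper end, 11 probe sets differed by at least 0.5 and 7 by at least 0.7, while 17 lay within 0.2 of 0. The interquartile range of the differences was 0.29, at percentile 97.4 of the 5705 genes with at least 14 retained probe sets, whose median was 0.16. The rule that chose the genes used the difference of each probe set from its gene, so nothing is read from percentiles of this range. The difference followed the brightness of the probe set weakly (Pearson 0.17 and Spearman 0.15 over the 52 probe sets, which share the same 8 arrays). Without knockout 3 the counts were 49 higher and 3 lower, with a median of 0.35, but the lower probe sets were not all the same. Probe set 4338705 was lower both times. Without that array, 4985576 (0.17) and 5575666 (0.10) were higher, while 4685864 (-0.011) and 4989979 (-0.021) were lower.

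Of the Kmt2a probe sets, 17 lay above wild type without overlap, by 0.19 to 0.85, and 0 below, where 2.73% and 1.51% of all retained probe sets did so. That count was 34 without wild type 3. With fewer arrays any probe set separates more easily, and the share over all probe sets was not computed for that set, so 34 is not comparable with 17 or 2.73%. For level, 3 Kmt2a probe sets passed an adjusted p of 0.05 in limma, where 0.0921% of all retained probe sets did and 0.0617% did so as higher. At an unadjusted p under 0.05, 33 of the 153 member probe sets passed, where 7.44% of all did. With 1 array left out, 0 Kmt2a probe sets were called without wild type 1, 2 or 4 or without knockout 1 or 4, 2 without wild type 3, and 1 without knockout 2 or without knockout 3. Those fits called 132 to 285 of all 312767 retained probe sets, against 288 with all arrays. Kmt2a was chosen on these differences, so nothing is read from the level calls.

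**Figure D2:**
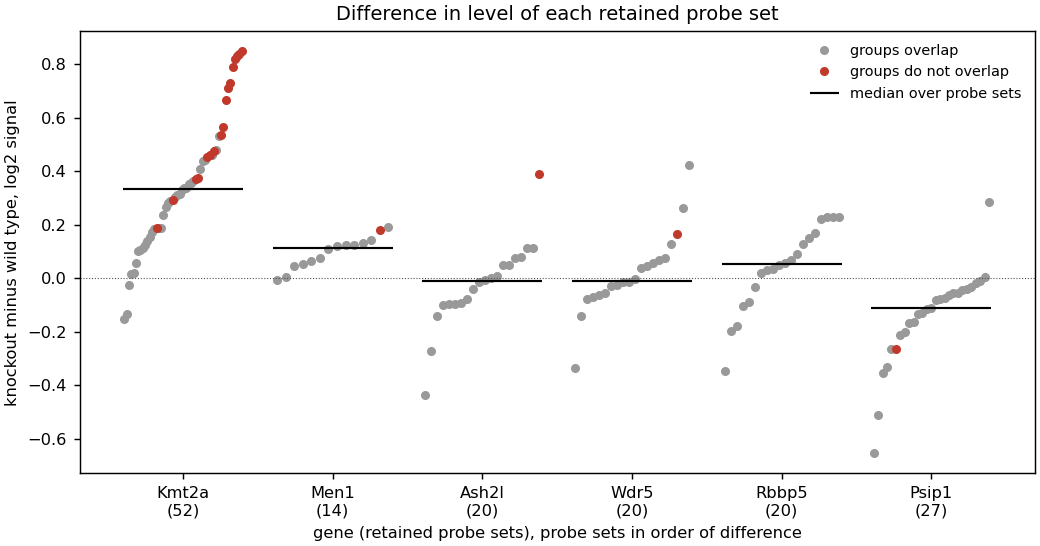
Difference in level (knockout minus wild type, log2 signal) of each retained probe set of the 6 genes, in order of size; red points are probe sets whose groups do not overlap, and black lines are medians. Kmt2a spans -0.15 to 0.85 with a median of 0.33 and Men1 -0.0074 to 0.19, while the other 4 genes reach well to both sides of 0.

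The largest difference was in probe set 4629102, with 11.28, 11.34, 11.22 and 11.40 in knockout and 10.40, 10.47, 10.64 and 10.33 in wild type. It differed by 0.85 (SE 0.076), or 1.80-fold, against 1.28-fold for the whole gene. Probe set 5589284 had 11.12, 10.98, 11.06 and 11.41 in knockout and 10.30, 10.21, 10.49 and 10.21 in wild type, a difference of 0.84 (SE 0.12). Probe set 5527648 was dimmer, at 10.24, 10.14, 10.23 and 10.07 in knockout and 9.33, 9.15, 9.61 and 9.27 in wild type, and differed by 0.83 (SE 0.11). In all 3 the lowest knockout array exceeded the highest wild type array by more than the SD of either group.

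To set aside the change of the whole gene, the gene median of the same array was subtracted from each probe set. On this measure, called the deviation here, Kmt2a probe sets ran from -0.51 to 0.49 (SD 0.25), against -0.12 to 0.079 in Men1 (SD 0.060). The other genes were wider than Men1, with -0.57 to 0.36 in Psip1 (SD 0.18) and -0.45 to 0.37 in Ash2l (SD 0.16). Wdr5 ran from -0.33 to 0.43 (SD 0.15) and Rbbp5 from -0.46 to 0.11 (SD 0.16). In Kmt2a, 9 probe sets had a deviation above every wild type array in every knockout array, where 1.64% of probe sets tested for usage did, and 3 had one below, where 1.28% did. The 3 probe sets with the largest level differences led them, with deviations of 0.49 (SE 0.092), 0.48 (SE 0.086) and 0.47 (SE 0.072) in the same order.

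Probe set 5431039 had a deviation of 0.47, 0.62, 0.090 and 0.57 in knockout and 0.011, -0.066, 0.039 and -0.072 in wild type. Knockout 3 sat close to the wild type arrays, and the difference was 0.46 with it and 0.58 without it. Probe set 4393922 differed in deviation by 0.43, 4647927 by 0.37, 4920389 by 0.35 and 5182998 by 0.30. In 4393922, knockout 3 (-1.61) and knockout 4 (-1.59) sat close to wild type 4 (-1.63). Probe set 5182161, named after its values were seen, completed the 9 with 0.099, and its knockout 3 (0.789) sat next to wild type 4 (0.783). After the group means were removed, the 9 probe sets followed each other over the 8 arrays with a median Pearson correlation of 0.60 (36 pairs), against 0.49 among the other retained Kmt2a probe sets (903 pairs) and 0.53 between both (387 pairs). The 9 were picked because their deviations did not overlap, which favours probe sets that vary little around the gene value. Nothing is therefore read from the comparison of these correlations.

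At the other end, probe set 4989979 had a level difference of 0.016 (-0.021 without knockout 3), with 9.98, 9.95, 10.08 and 9.86 in knockout and 9.86, 9.88, 10.06 and 10.02 in wild type. Relative to the gene it was lower in every knockout array, with a deviation of -0.35 (SE 0.084). The other 2 without overlap, 4438974 (-0.22) and 4413186 (-0.17, and -0.10 without knockout 3), were named after their values were seen. The most negative deviations of all overlapped between groups. Probe set 4338705 had 9.14, 8.93, 9.46 and 8.80 in knockout and 8.90, 9.53, 9.25 and 9.25 in wild type, a deviation of -0.51 (SE 0.20), which was between -0.63 and -0.38 with 1 array left out.

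In 2 further probe sets knockout 3 was the lowest of the 8 arrays. Probe set 5575666 had 10.31, 10.88, 9.70 and 10.76 in knockout and 10.46, 10.52, 10.61 and 10.59 in wild type. Its deviation was -0.49, and -0.23 without knockout 3, while its level difference was -0.13 with that array and 0.10 without it. Probe set 4985576 was at 8.68, 8.65, 8.07 and 9.25 in knockout and 8.79, 8.48, 8.91 and 8.58 in wild type, with a deviation of -0.39, and -0.16 without knockout 3.

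Of the 153 member probe sets, 0 were called for usage by limma diffSplice, a test of each probe set relative to the remaining ones of the gene, where 0.212% of all 195604 probe sets tested were and 0.0879% were called as raised. The splicing index, a test of the deviation itself, also called 0, where 0.00869% were called. At an unadjusted p under 0.05, diffSplice marked 19 of 153 (13 of them among the 52 of Kmt2a), where it marked 4.57% of all, and the splicing index marked 19 of 153, where it marked 5.27%. The rule that chose the genes used this measure, so nothing is read from these counts.

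**Figure D3:**
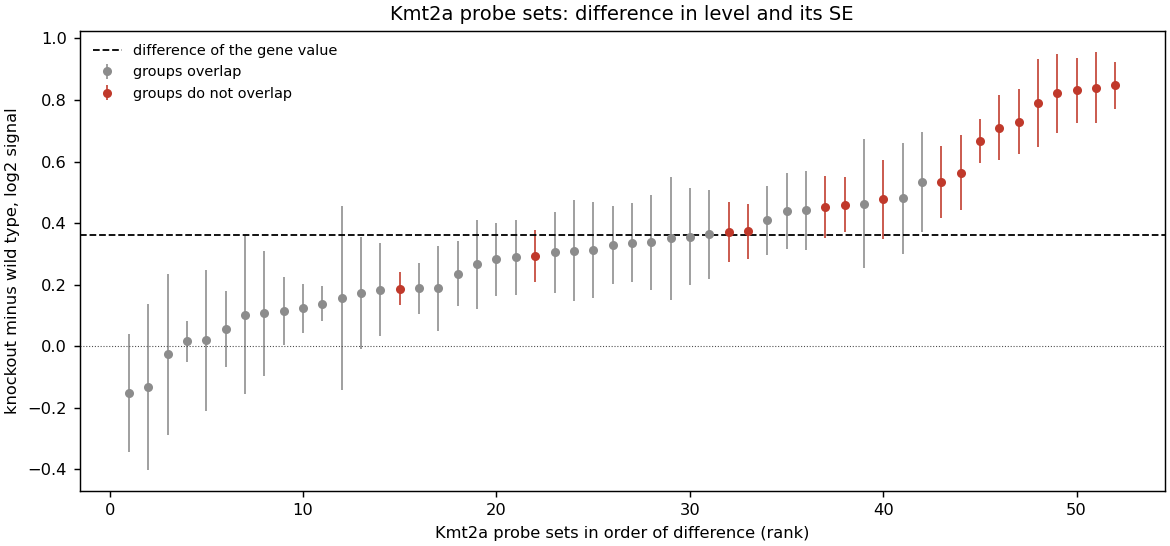
Difference in level (knockout minus wild type, log2 signal) of the 52 retained Kmt2a probe sets in order of size, each with its SE (n = 4 each); red points are probe sets whose groups do not overlap, and the dashed line is the difference of the gene value (0.36). The 7 probe sets at 0.7 or more stand on the right, up to 0.85, and 3 lie below 0.

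**Figure D4:**
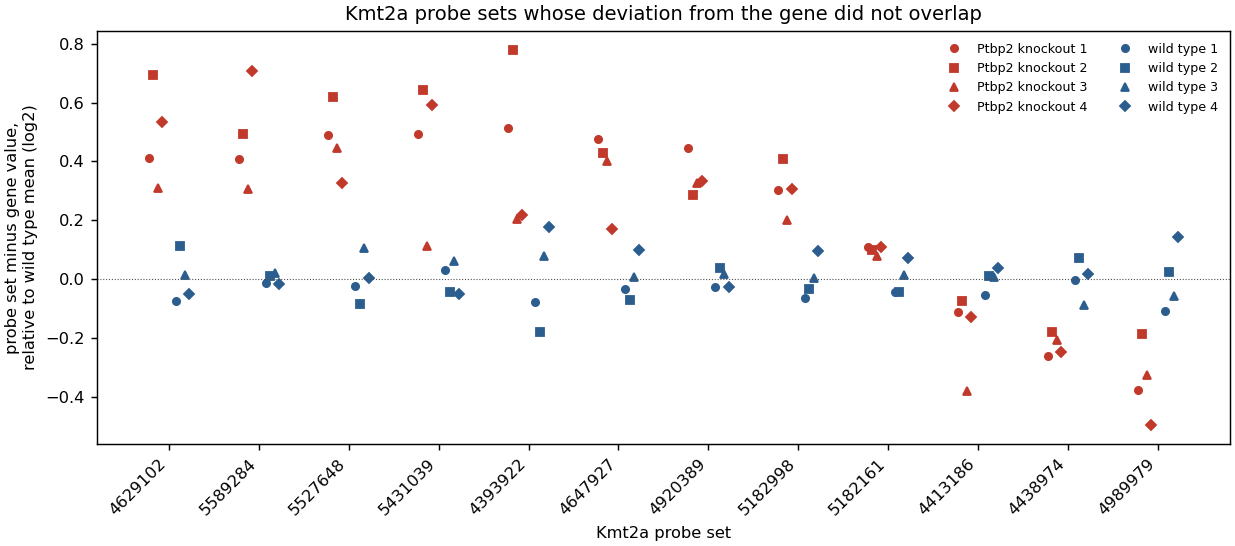
Probe set minus gene value, relative to the wild type mean (log2), on each array for the 12 Kmt2a probe sets whose deviation did not overlap between groups, with Ptbp2 knockout left of wild type; each point is 1 array and its shape gives the replicate. In 9 probe sets the knockout arrays lie above the wild type arrays and in 3 below. Knockout 3 (triangle) is near the highest wild type array in 5431039, 4393922 and 5182161.

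Men1 and Psip1, which encode the proteins that tether Kmt2a to chromatin, overlapped between the groups in level. Men1, encoding menin, had 10.12, 10.08, 10.01 and 10.17 in knockout and 10.03, 10.04, 9.78 and 10.08 in wild type. Wild type 3 was the lowest array. The means were 10.10 ± 0.069 in knockout and 9.98 ± 0.14 in wild type (SD, n = 4 each), a difference of 0.11 (SE 0.078), which was 0.043 without wild type 3.

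Men1 was the most even of the 6 genes. Its 14 probe sets differed by -0.0074 to 0.19, 13 of them higher, with an interquartile range of 0.072 at percentile 2.1 of the genes compared. The probe set highest relative to the gene, 5458305, had 10.45, 10.36, 10.53 and 10.31 in knockout and 10.21, 10.11, 10.09 and 10.47 in wild type. Its deviation was 0.079, and 0.010 without knockout 3, while the lowest, 5377227, had a deviation of -0.12, between -0.17 and -0.059 with 1 array left out (-0.079 without wild type 3 and -0.059 without knockout 2). Probe set 5327383, named after its values were seen, was the 1 of 14 whose levels did not overlap, with a difference of 0.18, where 2.73% of all retained probe sets lay above wild type without overlap.

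Psip1, encoding the LEDGF chromatin reader, had 10.07, 9.97, 9.82 and 10.15 in knockout and 10.31, 9.96, 9.97 and 10.09 in wild type. Knockout 3 was the lowest of all arrays and wild type 1 the highest. The means were 10.004 ± 0.14 in knockout and 10.08 ± 0.16 in wild type, a difference of -0.0805 (SE 0.11), which was -0.0205 without knockout 3 and -0.0050 without wild type 1. Over its 27 probe sets, 25 were lower and 2 higher in knockout (median -0.11), and 21 were lower and 6 higher without knockout 3 (median -0.058).

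Those 2 arrays moved with the Psip1 values. Knockout 3 was the lowest array in 18 of the 27 probe sets, against 15.8% of all retained probe sets, and wild type 1 was the highest in 17, against 19.4%. Since 25 of the 27 were lower in knockout, a low knockout array and a high wild type array were favoured beforehand, so nothing is read from these counts. Probe set 5437116 had 9.55, 9.72, 8.37 and 9.80 in knockout and 10.31, 9.67, 9.97 and 10.09 in wild type. Its level difference was -0.65, and -0.32 without knockout 3, and its deviation was -0.57, and -0.30 without that array. Probe set 5187477, named after its values were seen, was the 1 of 27 that lay below wild type without overlap, where 1.51% of all retained probe sets did. It had 11.95, 11.80, 11.72 and 11.93 in knockout and 12.19, 12.08, 12.01 and 12.15 in wild type, a difference of -0.26 (SE 0.067) with knockout 3 and -0.22 without it. The Psip1 probe set highest relative to its gene, 4661529, was dim and variable, with 7.85, 8.05, 7.38 and 8.14 in knockout and 7.93, 6.79, 7.56 and 8.02 in wild type, and a deviation of 0.36 (SE 0.26), between 0.14 (without wild type 2) and 0.51 with 1 array left out.

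The 3 core genes overlapped between the groups in level. Wdr5, a propeller protein that docks the enzyme onto the core, had 9.25, 9.34, 9.18 and 9.31 in knockout and 9.33, 9.13, 9.37 and 9.28 in wild type. The means were 9.27 ± 0.071 in knockout and 9.28 ± 0.10 in wild type, and the difference of -0.0078 (SE 0.063) was 0.023 without knockout 3, 0.023 without wild type 3 and 0.010 without wild type 1. Rbbp5, which binds the catalytic domain together with Ash2l, had 8.82, 8.77, 8.72 and 8.73 in knockout and 8.77, 8.57, 8.53 and 8.70 in wild type. Its difference was 0.12 (SE 0.061), and 0.081 to 0.16 with 1 array left out.

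Ash2l, which forms the activating pair with Rbbp5, had 10.09, 10.05, 10.14 and 10.22 in knockout and 10.36, 9.76, 10.11 and 10.22 in wild type. The knockout arrays lay within the wild type range, which wild type 1 and wild type 2 set at its ends. The difference was 0.016 (SE 0.13), 0.098 without wild type 1 and -0.10 without wild type 2. Relative to all genes tested, the pooled SD within groups was at percentile 76.4 for Ash2l and 54.3 for Psip1, against 31.5 for Kmt2a, 24.7 for Men1, 11.4 for Wdr5 and 10.1 for Rbbp5.

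Single probe sets of the core genes went both ways. In Ash2l, 8 were higher and 12 lower (10 and 10 without knockout 3), and 4535095 was the 1 that did not overlap, with 8.80, 8.72, 8.72 and 8.64 in knockout and 8.35, 8.15, 8.28 and 8.55 in wild type. It differed by 0.39 (SE 0.089), where 2.73% of all retained probe sets lay above wild type without overlap. Its deviation of 0.37 also separated the groups, where 1.64% of probe sets tested for usage lay above in this way. Its opposite, 5251231, had 9.16, 8.78, 8.59 and 9.36 in knockout and 9.93, 9.28, 8.93 and 9.49 in wild type, with a deviation of -0.45 (SE 0.23), between -0.61 and -0.32 with 1 array left out, and overlap.

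In Wdr5, 9 probe sets were higher and 11 lower, and 15 were higher and 5 lower without knockout 3. Probe set 4879791 had 8.80, 8.42, 8.84 and 8.62 in knockout and 8.41, 8.22, 7.85 and 8.50 in wild type, with a deviation of 0.43 (SE 0.21), and 0.27 without wild type 3. Probe set 4945373 had a deviation of -0.33 (SE 0.23), between -0.49 (without wild type 1) and -0.22 (without wild type 2). Both overlapped between the groups. Probe set 5382457, named after its values were seen, did not overlap in level, with 10.75, 10.78, 10.78 and 10.81 in knockout and 10.68, 10.60, 10.51 and 10.68 in wild type. It was the 1 of 20 in Wdr5, where 2.73% of all retained probe sets lay above wild type without overlap.

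In Rbbp5, 14 probe sets were higher and 6 lower, and the levels of all 20 overlapped. Without knockout 3 the counts were the same, but 4872249 was then higher and 4340733 lower. Probe set 4710663 had 9.08, 9.15, 8.54 and 9.33 in knockout and 9.64, 9.12, 9.28 and 9.45 in wild type. Its deviation was -0.46 (SE 0.18), and -0.31 without knockout 3. The highest relative to the gene, 5220099, had a deviation of 0.11 (SE 0.20), which was between -0.016 and 0.22 with 1 array left out.

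Likeness from array to array was then described. Over the 8 arrays, with the group means removed, the 15 pairwise Pearson correlations ran from -0.60 between Kmt2a and Men1 to 0.76 between Rbbp5 and Psip1. Kmt2a stood at 0.34 with Ash2l, 0.16 with Wdr5, -0.27 with Rbbp5 and -0.047 with Psip1, while Ash2l stood at 0.62 with Wdr5, 0.62 with Rbbp5 and 0.65 with Psip1. All arrays share the variation between embryos and between hybridisations. Of 12959 other genes, those most like Kmt2a on the same measure were Arhgef6 (0.99), Itga1 (0.97), Foxe1 (0.97), Pkd1 (0.97) and Sipa1l3 (0.97). The most opposite were Fam53b (-0.99), Rcsd1 (-0.97), Sri (-0.97), Itgb2l (-0.96) and Gm6627 (-0.96). These genes are the ends of 12959 correlations over only 8 arrays, where values near 1 and -1 can arise from the search alone. No test was made, and nothing is read from them.

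Genes that work with or against the complex were then set beside it, in 5 lists of 65 genes drawn from general knowledge. Of the 60 that could be tested, 0 passed an adjusted p of 0.05 in limma in either direction, where 0.116% of all genes did, and 3 had an unadjusted p under 0.05, where 6.49% did. In all, 31 were higher and 29 lower in knockout, with a median difference of 0.0014 against 0.0027 over all genes tested. Kmt2d and Afdn were not named by a single symbol, and Hoxa5, Hoxa9 and Hoxc8 had too few retained probe sets.

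The other KMT2 enzymes and subunits held 17 tested genes, 9 higher and 8 lower (median 0.0015), between -0.047 for Kmt2e and 0.16 for Pagr1a, a subunit of the Kmt2c and Kmt2d complexes (limma adjusted p = 0.876). Without wild type 3, Pagr1a was at 0.063 and Kmt2e at -0.017, and Kmt2e was at -0.017 without wild type 1 and -0.019 without knockout 3. Dpy30, the remaining core subunit, had a difference of 0.12 (limma adjusted p = 0.943), which was -0.029 without wild type 3 and 0.20 without wild type 1, and Bod1 one of 0.12, which was 0.076 without that array. The 10 H3K4 demethylases and corepressors, which remove the mark or help to, had 5 genes on each side (median 0.0010). The corepressor Rcor2 differed by 0.20 (limma adjusted p = 0.818), the demethylase Kdm5c by -0.15 (limma adjusted p = 0.897), Rcor3 by -0.13 and the demethylase Kdm1a by -0.066. Kdm1a was at 0.0015 without knockout 3 and -0.039 without wild type 1, Rcor2 at 0.11 without wild type 3, Kdm5c at -0.25 without wild type 2 and -0.080 without wild type 4, and Rcor3 at -0.0014 without knockout 2.

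Among 15 tested genes for the protease that cleaves Kmt2a, its fusion partners and elongation factors, 8 were higher and 7 lower (median 0.0014). Mllt3, an elongation factor and fusion partner, had 10.04, 9.99, 10.05 and 10.06 in knockout and 10.26, 10.16, 10.28 and 10.23 in wild type. All knockout arrays were below all wild type arrays, by 0.20 on average (SE 0.084, limma adjusted p = 0.751). Its relative Mllt1 lay the other way, with 10.05, 9.89, 10.08 and 9.93 in knockout and 9.86, 9.86, 9.63 and 9.83 in wild type, a difference of 0.19 (limma adjusted p = 0.785). Mllt1 was the 1 of the 60 tested list genes above wild type without overlap, where 1.68% of all genes were. Mllt3 was the 1 below, where 1.97% of all genes were. Eps15 differed by -0.13 and Cdk9, the kinase of the elongation factor P-TEFb, by 0.12. Eps15 was at -0.082 without wild type 1, and Cdk9 at 0.075 without wild type 3.

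In the list of 9 binding partners of Psip1 or menin, 6 genes were higher and 3 lower (median 0.030). These 9 included Hdgf and Hdgfl2, which are relatives of Psip1. Dbf4 was at 0.15 (limma adjusted p = 0.921), Cdc7 at 0.087, Jund at 0.082 and Hdgfl2 at 0.080. Jund was at -0.034 without knockout 3, and without wild type 3 Dbf4 was at 0.072, Jund at 0.020 and Hdgfl2 at 0.039. With 1 array left out, Dbf4 ran from 0.048 to 0.23 and Cdc7 from 0.038 to 0.17. Of 9 tested genes reported as controlled by Kmt2a or menin, 3 were higher and 6 lower (median -0.055). The homeodomain factor Meis1 averaged 8.52 ± 0.094 in knockout and 8.82 ± 0.22 in wild type (SD, n = 4 each), a difference of -0.30 with overlap (limma adjusted p = 0.694). The cell cycle inhibitor Cdkn2c differed by 0.25 (limma adjusted p = 0.751), the further inhibitor Cdkn1b by 0.23 (limma adjusted p = 0.827; 0.14 without knockout 3 and 0.14 without wild type 3) and Dlx2 by -0.14 (limma adjusted p = 0.884). These differences did not pass the threshold.

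**Figure D5:**
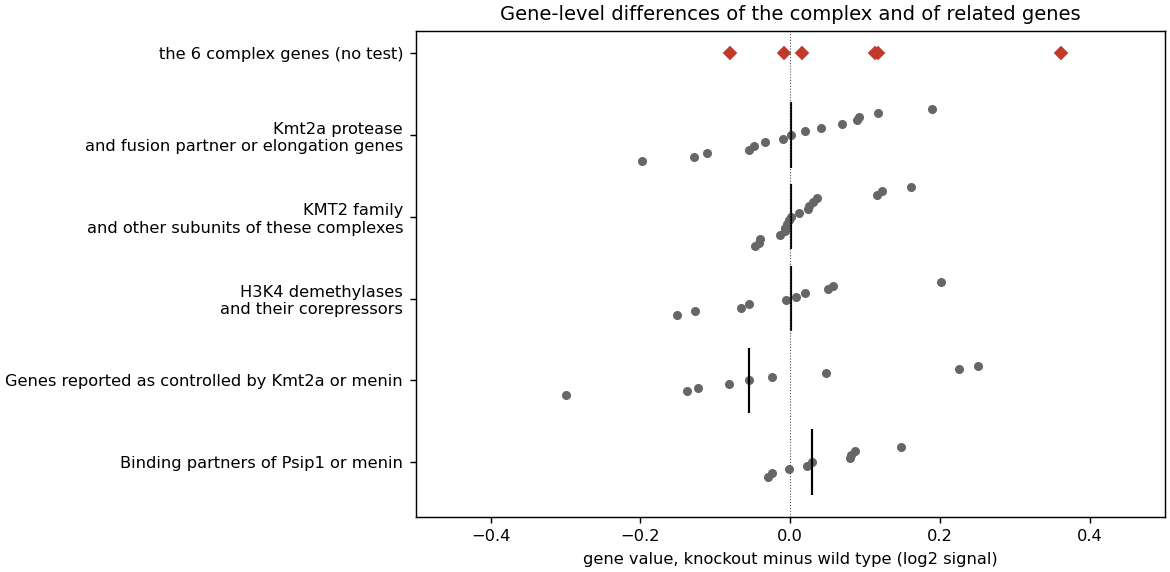
Difference in gene value (knockout minus wild type, log2 signal) of the 6 complex genes (top row) and of the 60 tested genes in 5 lists; each point is 1 gene and black bars are list medians. Kmt2a stands at 0.36, and the genes of the 5 lists run from -0.30 to 0.25.

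For usage, diffSplice called 6 of the 1303 probe sets tested in these lists, where 0.212% of all were called, and the splicing index called 0 of them. The diffSplice test assumes that all probe sets of a gene vary alike, and on simulated data in which each had its own spread it also called many unchanged probe sets, so its adjusted p-values may be too small. The 6 were Bod1l 4555944 (log2 difference in usage -0.86, diffSplice adjusted p = 0.00521), Bod1l 5547651 (0.74, adjusted p = 0.0342), Meis2 4539550 (-0.80, adjusted p = 0.000316), Rcor1 5211552 (-0.77, adjusted p = 0.00657), Mllt10 5599789 (0.60, adjusted p = 0.0373) and Pogz 4710661 (-0.49, adjusted p = 0.0312). The deviations of Bod1l 5547651 from its gene were -1.42, -1.46, -1.33 and -1.51 in knockout and -1.74, -2.12, -2.57 and -2.22 in wild type, so the groups did not overlap. The other 5 overlapped between the groups. Splicing index adjusted p-values for the 6 ran from 0.759 to 0.921.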

How the data were processed

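The deposited log2 signals, 1 per probe set on each of 8 arrays (4 Ptbp2 knockout, 4 wild type), were made by the authors with Affymetrix Expression Console and RMA on the mm9 build, per the submitters' processing notes, which give no versions and no role for each tool. RMA equalises the arrays, which removes differences in total RNA and compresses low signals. There is no count depth, so precision is limited by the number of arrays.

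The platform annotation gave 1 symbol to 303629 of 625534 probe sets, several to 5892 (not used), and did not list 316013. Symbols were updated through a RefSeq gene table of assembly GRCm38.p6, used for names and chromosomes only. A probe set was retained at a mean of at least 6.84, the table median (312767 retained), and a gene was tested with at least 4 such probe sets (12960 genes). Levels were fitted with limma 3.58.1 (lmFit, eBayes) in R 4.3.3 with no covariate and Benjamini-Hochberg adjustment at 0.05 over all features. Usage was tested with diffSplice on 195604 probe sets, Ptbp2 left out. Unless a limma p is named, an SE is that of the difference of 2 means of 4 arrays.

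The members, lists and tests were chosen with earlier results of these data known. Members entered the fits over all features, and their calls are counted beside the overall share with nothing read from them. Named probe sets are the most raised and most lowered relative to each gene (3 each way for Kmt2a) and up to 10 whose deviations do not overlap; named list genes are the 4 with the smallest p in each list, and 5 genes at each end of the correlation with Kmt2a. Replicate numbers were not treated as pairs. Deviations of same-numbered arrays from their group means correlated at 0.254, -0.004, 0.033 and 0.171. The best matching wild type array had the same number for replicates 1 and 4, and another number for replicates 2 and 3. Whether arrays of a number share a batch was not tested. The scripts were tested on simulated data, where diffSplice made many false calls once probe sets of a gene had unequal spreads and few when they varied alike. Alternatives were arrays left out, other filters, normalizations and gene summaries, a replicate block, array weights, an Xist covariate and the splicing index. Probe set positions and sequences were not used here.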

Additional observations from a re-analysis of the deposited data

Results flagged for a closer look

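Within the groups of 4 arrays, 98 sets of values were examined for an array far from the other 3 of its group (Dixon's test), of which chance alone marks about 1 in 20, and 4 were marked. Kmt2a was at 10.2763 in knockout 2, below 10.50 to 10.54 in the other knockout arrays, so the lowest knockout value came close to the highest wild type value. Men1 was at 9.7752 in wild type 3, below 10.03 to 10.08 in the other wild type arrays. Mllt1 was at 9.6302 in the same array, below 9.83 to 9.86. Psip1 probe set 5437116 was at 8.3728 in knockout 3, below 9.55 to 9.80 in the other knockout arrays.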

How the results depend on the processing

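The Kmt2a difference was positive in 17 of 17 alternatives (0.32 to 0.51) and Men1's in 17 of 17, Psip1's was negative in 17 of 17, and Ash2l (12 positive, 5 negative) and Wdr5 (6 and 11) changed sign. With the filter at the 75th percentile, Kmt2a was at 0.51, Psip1 at -0.26 and Rbbp5 at -0.022, and Kmt2a probe sets 4629102, 5589284 and 5527648 had deviations of 0.33, 0.33 and 0.32. Member genes called (0) became 1, Kmt2a, there and with array weights, and stayed 0 in the other 17 alternatives. Leaving out 1 array gave 7 to 15 genes changed in level (15 with all arrays), 132 to 285 probe sets changed in level (288), 159 to 856 with differential usage (414), 0 to 1 member probe sets called for usage (0) and 17 to 34 Kmt2a probe sets without overlap (17). Both arrays numbered 3 left out gave 9, 107, 247, 2 and 39. Fewer arrays make it easier for any probe set not to overlap, so the counts of 34 and 39 are not comparable with 17. Genes changed in level numbered 7 without a filter, 25 at the 75th percentile, 24 with quantile normalization, 37 with the mean of probe sets, 5 with at least 1 probe set per gene and 39 with array weights. Probe sets changed in level numbered 187 with the replicate block, 152 without a filter, 461 with trend and robust fitting and 670 with array weights. Usage calls numbered 17 by the splicing index, 889 without a filter, 139 at the 75th percentile and 1246 with array weights, which called 6 member probe sets, all in Kmt2a. The usage calls with arrays left out were Kmt2a 4338705 (without wild type 3 or knockout 3), 5575666 (without knockout 2), and 4338705 and 5431039 (without both arrays numbered 3). The replicate block is among the 17 alternatives but cannot move these differences, since each number holds 1 array per group, so the Kmt2a difference stayed at 0.36. With that block, without a filter and without both arrays numbered 3, 0 Kmt2a probe sets were called in level, against 3 in the main fit. The count was 8 at the 75th percentile, 8 with trend and robust fitting and 8 with array weights. It was 4 with quantile normalization, 3 with cyclic loess and 1 with the Xist covariate. Kmt2a was chosen on these differences, so nothing is read from these counts. The 4629102, 5527648 and 5589284 level calls held in 12, 9 and 8 of 20 settings, and in 3, 1 and 0 of those with 1 array left out. The 20 include the main fit that made the calls. They also include the mean of probe sets and at least 1 probe set per gene, which cannot change a probe set level. The list genes passing the threshold were 0 in all 19 alternatives. The cause of these shifts was not tested.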

Other observations

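Outside the comparison, 5 member probe sets lay below the signal filter. They differed between knockout and wild type by 0.47 in Kmt2a (4555616, mean 6.30), 0.26 in Ash2l (4990275, mean 5.91) and 0.27, 0.37 and -0.13 in Rbbp5 (4408924, 4650224 and 4887721, means 6.62, 6.82 and 5.83).

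Single arrays recurred at the ends of the Kmt2a values. Kmt2a was chosen on this contrast, and 49 of its 52 retained probe sets were higher in knockout. A wild type array at the low end and a knockout array at the high end follow largely from that choice. The shares over all probe sets are therefore not a like comparison, and nothing is read from these counts. Wild type 2 was the lowest array in 24 of 52 retained Kmt2a probe sets, against 16.3% of all retained probe sets, and knockout 4 was the highest in 24, against 9.52%. Knockout 3 was the lowest in 4 of them, and in 7 of 20 in Wdr5, 6 of 20 in Rbbp5, 5 of 20 in Ash2l and 0 of 14 in Men1, against 15.8% of all.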
